A study of Mus musculus with 6 samples.

Results

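The genes examined here were the 29 B cell and plasma cell genes taken by symbol from the deposited table of 18477 genes. All 29 were found, each had at least 1 count in each of the 6 libraries, and all 29 passed the filter on low counts that left 14579 genes for testing. Colon tissue was sequenced as bulk RNA in 6 libraries, 3 of the DSS group and 3 of the DSS+BV group. The animals of both groups were male C57BL/6 mice aged 6 to 8 weeks, and all received 2% (w/v) dextran sulphate sodium (DSS), a polymer that injures the colonic epithelium, in their drinking water from day 8 to day 14. The DSS group was gavaged daily with PBS for 14 days, and the DSS+BV group with *Bacteroides vulgatus* (BV), an anaerobic gut commensal. A group without DSS was not analysed here, so all levels below are those of mice given DSS.

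B cells recognise antigen through a surface immunoglobulin that signals through the Cd79a and Cd79b chains, and their identity is kept by Pax5 and Ebf1. In the colon they gather in lymphoid follicles beneath the epithelium, where follicular dendritic cells and the chemokine Cxcl13 organise them and where germinal centres form. Activated B cells that switch on Prdm1, Irf4 and Xbp1 become plasma cells, which lie scattered in the lamina propria and secrete IgA joined by the J chain for transport across the epithelium. The immunoglobulin constant and variable genes themselves were not analysed here, so antibody production was followed only through its accessory genes.

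Promoter sequence was read for the members to show what they share before any value is given. In the RefSeq promoter table for GRCm38.p6, 25 of the 29 genes had at least 1 window, with 30 windows in all, and the 250 bases before each transcription start were searched on both strands. A purine box, written GAGGAA, is the kind of motif that Ets factors such as Spib bind. It occurred in 14 of 30 member windows (46.7%), one in each of 14 genes, against 23.3% of all 32851 windows. The Ebf1 palindrome, TCCC and GGGA separated by any 2 bases, occurred in 1 member window (3.33%), that of Cd22, against 0.779% of all windows. The octamer ATGCAAAT, a site for the Oct factors that Pou2af1 assists, occurred in 0 of 30 member windows against 1.6% of all windows. No test was made of these shares, and a match in these letters is not evidence of binding. The stretches below are those of Cd79a and Cd22, which hold a match, and of Jchain, which held none of the 3. They lie at chr7:24897247-24897380 on the plus strand, chr7:30879058-30879087 on the minus strand and chr5:88527898-88528147 on the minus strand, and capitals mark the match, which for Cd79a is the box read on the opposite strand. The only window of Cd22 in the table precedes a start inside the gene as annotated, so its stretch lies within the gene's bounds.
Cd79a: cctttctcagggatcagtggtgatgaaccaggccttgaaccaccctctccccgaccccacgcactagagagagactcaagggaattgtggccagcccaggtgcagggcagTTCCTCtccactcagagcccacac
Cd22: tcctgcaagaTCCCTGGGGActcacacaga
Jchain: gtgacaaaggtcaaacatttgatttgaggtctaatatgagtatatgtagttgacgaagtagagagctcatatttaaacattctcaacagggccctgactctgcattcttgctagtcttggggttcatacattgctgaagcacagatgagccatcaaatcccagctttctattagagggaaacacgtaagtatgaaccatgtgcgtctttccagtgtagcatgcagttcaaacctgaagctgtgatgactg

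The libraries held between 15293276 and 17254343 expected counts, and the scaling factors lay between 0.970 and 1.04. Epithelial markers were abundant in all 6 libraries, as the tissue label requires. Across all tested genes, 13 (0.0892%) were called lower and 0 (0%) higher in the DSS+BV group by edgeR's quasi-likelihood test at an adjusted p under 0.05 and a log2 fold change beyond 1. Without the adjustment and the fold threshold, 9.12% of genes were lower and 3.4% higher at p under 0.05. DESeq2 called 1.73% lower and 0.279% higher.

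No B cell or plasma cell gene passed the test of a difference between the groups. Of the 29 members, 0 were called lower and 0 higher by edgeR, and the counts were the same with DESeq2, which gave no adjusted p for Pax5. At an unadjusted p under 0.05, 1 member was lower in the DSS+BV group (Prdm1) and 0 were higher. The log2 fold change was below 0 for 28 of the 29 members, against 51.5% of all genes tested, and the median over the members was -0.77 against -0.01 over all genes. The smallest adjusted p of any member, by edgeR's quasi-likelihood test, was 0.377. The members were instead among the most variable genes within the groups. Their median standard deviation within a group was 1.62 on the log2 scale, against 0.29 over all tested genes, and only 1.26% of tested genes had a spread wider than that median.

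This spread had the same shape in nearly every member, with 3 libraries high and 3 low. Both groups were present in each set, though not in equal numbers. In 25 of 29 members the 3 highest libraries were DSS 1, DSS 3 and DSS+BV 1, an order found in 11.7% of all tested genes. DSS 3 was the highest of the 6 libraries in 23 members (29.8% of all genes) and DSS+BV 1 in 5 (10.4% of all genes). The lowest library was DSS+BV 2 or DSS+BV 3 in 26 members and DSS 2 in 2, and the matching share of all genes was not computed. For the 27 members with more than 3 counts in their lowest library, the highest level exceeded the lowest by 1.68-fold to 89.8-fold, with a median of 16.7-fold. In bulk tissue, fewer cells of a type and less RNA per cell cannot be told apart.

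The signalling chains of the B cell receptor showed the same pattern of 3 high and 3 low libraries. Levels are given in CPM, counts per 1000000 of the scaled library size. Cd79a (Entrez 12518, chr7:24897497-24901858), which carries the receptor's signal into the cell, was measured at 39.1, 4.48 and 66.9 CPM in DSS libraries 1 to 3 and at 53, 1.91 and 2.66 CPM in DSS+BV libraries 1 to 3. Counts behind these levels ran from 30 to 1148. DSS+BV 1 thus lay between DSS 1 and DSS 3, while DSS 2 lay nearer to DSS+BV 3 than to either of its own group, and the groups overlapped. The log2 fold change of Cd79a was -0.94 (SE 1.39, edgeR adjusted p = 0.803), with a 95% interval from -4.25 to 2.37 that leaves room for a large difference in either direction. Its partner Cd79b (chr11:106311341-106314562) read 16.2, 2.36 and 30.2 CPM in the DSS libraries and 19.9, 0.764 and 1.52 CPM in the DSS+BV libraries, for a log2 fold change of -1.14 (SE 1.30). Blk, a Src-family kinase of B cells, stood at 6.71, 0.87 and 12.1 CPM in the DSS group and at 10.8, 0.255 and 0.695 CPM in the DSS+BV group. Bank1, a B cell scaffold that links the receptor to calcium release, had 13.5, 1.87 and 18.5 CPM against 16.2, 1.66 and 0.885 CPM. All 4 genes ranked the same 3 libraries first, and the gap between the 3rd and 4th library ran from 6.87-fold for Cd79b to 8.74-fold for Cd79a. The 4 log2 fold changes lay between -1.14 and -0.75 and their adjusted p-values between 0.744 and 0.843 (edgeR).

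All 10 genes listed with the surface receptors had the same 3 libraries highest. Ms4a1 (chr19:11249679-11266149), which encodes CD20 and is lost when B cells become plasma cells, measured 17.9, 1.18 and 42.5 CPM in the DSS libraries and 38.8, 1.21 and 1.33 CPM in the DSS+BV libraries. Cr2 (chr1:195136811-195176880), the complement receptor of mature and follicular B cells, spanned the widest range of any member, with 18.1, 0.373 and 25.9 CPM in the DSS group and 33.5, 0.573 and 0.885 CPM in the DSS+BV group. DSS 2 held the lowest value of both genes, so the low libraries were not those of 1 group. Fcer2a, the low-affinity IgE receptor of mature B cells, was found at 8.02, 0.87 and 13.7 CPM and at 14.1, 0.0637 and 0.379 CPM, and the smallest of these rested on 1 count. Cd22 (chr7:30865404-30880342), an inhibitory lectin that dampens receptor signalling, had 31.6, 4.23 and 45.5 CPM in the DSS group and 43.1, 2.55 and 2.47 CPM in the DSS+BV group. Its level in DSS+BV 1 was close to that in DSS 3, and its level in DSS 2 was within 2-fold of those in DSS+BV 2 and DSS+BV 3.

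Among the other genes of this list, Fcrla, an Fc receptor-like protein of germinal centre B cells, showed 7.07, 0.995 and 12.2 CPM in the DSS libraries. In the DSS+BV libraries it showed 9.56, 0.446 and 0.253 CPM. Its relative Fcrl1, found on the B cell surface, showed 8.2, 0.56 and 13.9 CPM against 8.97, 0.51 and 0.759 CPM. Btla, an inhibitory receptor that T cells carry as well, reached 18.9, 3.98 and 38.7 CPM in the DSS group and 29.1, 2.55 and 2.09 CPM in the DSS+BV group. The 3 genes shared the split of the libraries seen for Cd79a. Cd37, a tetraspanin of mature B cells, gave 26.3, 6.84 and 42.6 CPM and 35, 3.44 and 4.05 CPM in the respective groups. Cd72, an inhibitory coreceptor, gave 20.8, 7.71 and 37.3 CPM and 27.3, 6.18 and 6.07 CPM. Cd180, a Toll-like receptor relative that macrophages also carry, gave 6.41, 1.99 and 8.91 CPM and 12.2, 1.66 and 1.52 CPM. The split was narrower in Cd72 and Cd180, where the highest library exceeded the lowest by 6.15-fold and 8.04-fold, than in Cr2 (89.8-fold). Over the 10 genes the log2 fold change ran from -1.15 (Fcrl1) to -0.17 (Cd180) with a median of -0.75, and the adjusted p from edgeR was at least 0.717.

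**Figure D1:**
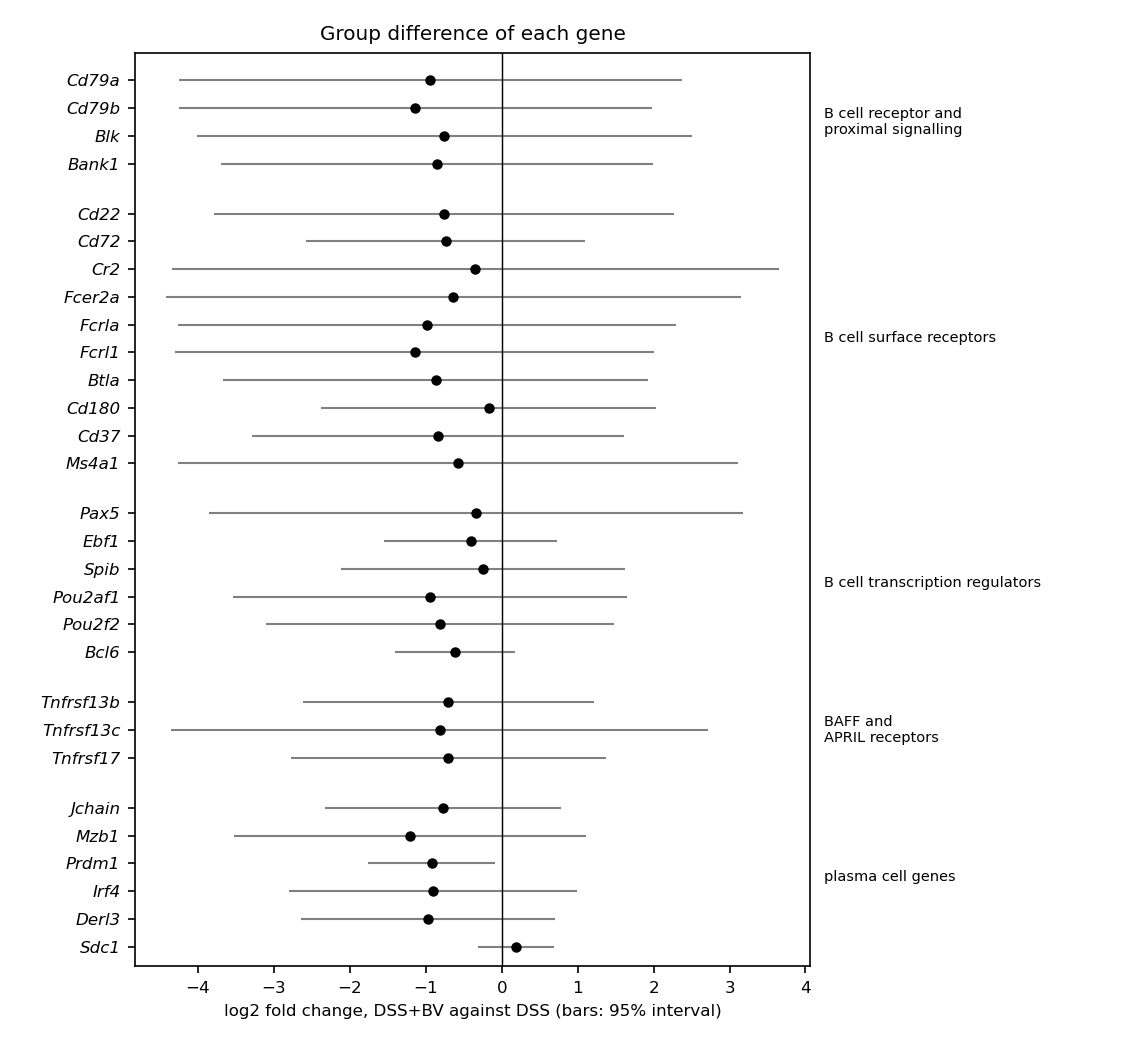
Log2 fold change of each member in the DSS+BV group against the DSS group, with its 95% interval from the edgeR fit as a bar and 3 libraries per group. Points lie to the left of 0 for 28 of 29 members, and the interval of Prdm1 alone does not include 0 before adjustment.

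Among the 6 transcription regulators, Pax5, Pou2af1 and Pou2f2 spanned a wider range from the lowest to the highest library than Spib, Ebf1 and Bcl6. Pax5 (chr4:44524748-44710694), the factor that commits cells to the B lineage, was at 19.5, 1.55 and 17.6 CPM in DSS libraries 1 to 3 and at 29, 0.764 and 0.759 CPM in DSS+BV libraries 1 to 3. Pou2af1, the coactivator that B cells need to form germinal centres, was at 27.4, 9.57 and 60.9 CPM and 43.3, 4.14 and 3.54 CPM, and Pou2f2, an Oct factor it works with, at 10.7, 4.04 and 18.1 CPM and 14.8, 2.8 and 1.07 CPM. The highest library exceeded the lowest by 38.3-fold for Pax5 and by 17.2-fold and 16.8-fold for Pou2af1 and Pou2f2. Spib, an Ets factor of B cells that M cells and plasmacytoid dendritic cells also express, had 21, 9.01 and 38.2 CPM in the DSS group and 41.2, 7.77 and 8.41 CPM in the DSS+BV group. Ebf1, which initiates the B cell programme and is also found in stromal cells, had 11, 5.6 and 12.6 CPM and 12.2, 5.03 and 4.8 CPM. Bcl6, the germinal centre repressor that other immune and epithelial cells also use, had 23.4, 20.3 and 42.4 CPM and 24, 17.5 and 14.8 CPM. Ebf1 and Bcl6 spanned 2.63-fold and 2.87-fold between libraries, yet their order still placed DSS 1, DSS 3 and DSS+BV 1 on top. With the smaller spread of Bcl6 its log2 fold change of -0.61 carried an SE of 0.33, and its edgeR adjusted p was 0.497. The median over the 6 regulators was -0.51.

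The receptors for BAFF and APRIL, the cytokines on which B cells and plasma cells depend for survival, differed in their pattern. Tnfrsf13c, the BAFF receptor of mature B cells, measured 8.38, 0.684 and 11.4 CPM in the DSS libraries and 11.1, 0.191 and 0.379 CPM in the DSS+BV libraries, where the smallest value rested on 3 counts. Tnfrsf13b (TACI), a receptor of activated B cells for both cytokines, measured 10.7, 4.72 and 21.7 CPM and 16.3, 3.25 and 3.29 CPM. These 2 genes followed Cd79a. Tnfrsf17 (BCMA), the receptor that sustains plasma cells, was scarce at 0.659, 0.808 and 3.09 CPM in the DSS group and 1.98, 0.382 and 0.443 CPM in the DSS+BV group, and DSS 2 exceeded DSS 1. The log2 fold changes were -0.82, -0.70 and -0.70, with edgeR adjusted p-values from 0.742 to 0.843.

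Of the 6 plasma cell genes, 3 (Mzb1, Irf4 and Derl3) had DSS 1, DSS 3 and DSS+BV 1 as their highest libraries and 3 (Jchain, Prdm1 and Sdc1) did not. Jchain (Entrez 16069, chr5:88519809-88527897), which joins IgA into dimers, was measured at 533, 537 and 1378 CPM in DSS libraries 1 to 3 and at 937, 260 and 235 CPM in DSS+BV libraries 1 to 3. DSS 1 and DSS 2 were almost equal for Jchain, whereas Cd79a was 8.74-fold higher in DSS 1 than in DSS 2. The log2 fold change of Jchain was -0.77 (SE 0.65, edgeR adjusted p = 0.648). Mzb1, a chaperone for antibody assembly, had 10.7, 4.72 and 33 CPM in the DSS group and 16, 1.97 and 3.1 CPM in the DSS+BV group, and its log2 fold change of -1.21 was the most negative of all members (SE 0.97, edgeR adjusted p = 0.636). Derl3, part of the export machinery for misfolded proteins, had 3.77, 3.17 and 10.6 CPM and 5.67, 1.27 and 2.02 CPM. Irf4, a factor required for plasma cell formation and also used by T cells and macrophages, had 14.4, 6.71 and 22 CPM and 17.1, 2.93 and 2.91 CPM. In these 2 genes DSS+BV 1 was again the high library of its group, and DSS 2, DSS+BV 2 and DSS+BV 3 were the 3 lowest libraries.

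Prdm1 and Sdc1 stood apart from the other members. Prdm1 (Entrez 12142, chr10:44437174-44528558), which encodes Blimp-1 and drives plasma cell differentiation, is also active in T cells, macrophages and epithelium. It was measured at 18.5, 16.8 and 37.6 CPM in the DSS libraries and at 15.2, 12.7 and 10.5 CPM in the DSS+BV libraries. It was the only member in which every DSS+BV library lay below every DSS library, an arrangement found in 11.3% of all tested genes, and 0 members had the opposite arrangement, found in 6.37%. Its log2 fold change was -0.92 (SE 0.35, 95% interval -1.75 to -0.09), with an unadjusted p of 0.035 and an adjusted p of 0.377 by edgeR, and an adjusted p of 0.225 by DESeq2. Sdc1, which encodes syndecan-1 (CD138), marks plasma cells but is abundant on epithelium as well. It was measured at 190, 265 and 228 CPM and at 208, 253 and 320 CPM, the highest value being that of DSS+BV 3. Sdc1 was the only member with a log2 fold change above 0 (0.19, SE 0.21, edgeR adjusted p = 0.728), and it varied least between libraries, by 1.68-fold.

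Because the B cell genes varied together, plasma cell genes were also set against Cd79a within each library, as ratios of CPM that are not corrected for gene length. The ratio of Jchain to Cd79a was 13.6, 120 and 20.6 in DSS libraries 1 to 3 and 17.7, 136 and 88.4 in DSS+BV libraries 1 to 3. The libraries low in Cd79a had the most Jchain per Cd79a in both groups, but this largely restates the wider range of Cd79a. Between libraries Cd79a spanned 35-fold, against 5.87-fold for Jchain, 16.7-fold for Mzb1 and 7.57-fold for Irf4. No separate change of plasma cell genes can be read from these ratios. Mzb1 over Cd79a was 0.274, 1.06 and 0.494 in the DSS libraries and 0.301, 1.03 and 1.17 in the DSS+BV libraries, and Irf4 over Cd79a was 0.369, 1.5 and 0.329 and 0.323, 1.53 and 1.1. Both ratios were also higher in DSS 2, DSS+BV 2 and DSS+BV 3 than in the other 3 libraries. By contrast, Ms4a1 over Cd79a was 0.458, 0.264 and 0.635 in the DSS libraries and 0.731, 0.633 and 0.50 in the DSS+BV libraries. That ratio had no such split, and Ms4a1 itself spanned 35.9-fold, about as widely as Cd79a. In every case the range of the DSS group overlapped that of the DSS+BV group, and the low counts of Cd79a in DSS+BV 2 and DSS+BV 3 (30 and 42) limit the precision of the ratios.

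**Figure D2:**
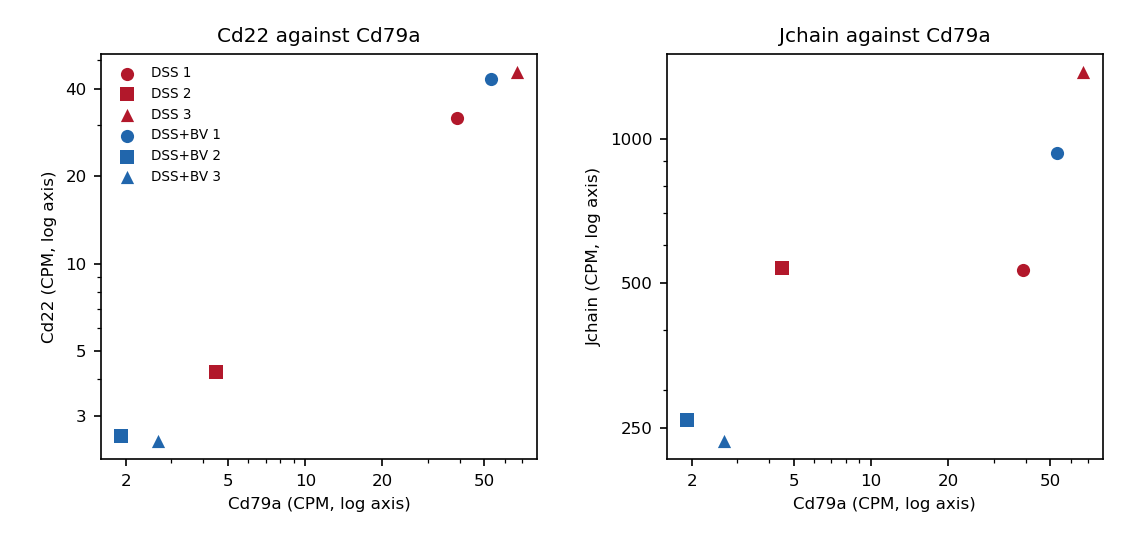
Cd22 (left) and Jchain (right) against Cd79a in each of the 6 libraries, in CPM on log axes, with DSS libraries in red and DSS+BV libraries in blue. For Cd22 the points fall into a high group of 3 and a low group of 3, whereas for Jchain DSS 2 lies level with DSS 1.

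Genes outside the membership but of the same lineage were examined through lists written with earlier results of these data known. Of 33 other B cell genes, 0 were called in either direction by edgeR or DESeq2 and 2 were lower at an unadjusted p under 0.05, and their median log2 fold change was -0.59. Cxcr5, the receptor that guides B cells to follicles, was at 12, 1.06 and 18.6 CPM in the DSS libraries and 16, 1.15 and 1.2 CPM in the DSS+BV libraries. Cd38, an ectoenzyme that is not restricted to B cells, had the smallest p of the list (582, 349 and 620 CPM against 380, 318 and 243 CPM, log2 fold change -0.72, SE 0.27, edgeR adjusted p = 0.378). In 28 of these 33 genes DSS 1, DSS 3 and DSS+BV 1 were the 3 highest libraries.

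Germinal centre genes and genes of the secretory apparatus varied less between libraries. Of 11 germinal centre genes 10 were tested, 0 were called by either tool, 1 was lower at an unadjusted p under 0.05 and the median was -0.41. S1pr2, which confines B cells to the germinal centre and is also present in other cell types, had the smallest p (15.7, 11.1 and 17.6 CPM against 11.3, 6.82 and 8.6 CPM, edgeR adjusted p = 0.382). Of 19 secretory genes, 0 were called by either tool, 0 reached an unadjusted p under 0.05 in either direction and the median was -0.10. Xbp1, the factor that expands the endoplasmic reticulum of plasma cells and of goblet cells alike, stood at 277, 258 and 331 CPM and 302, 260 and 237 CPM. Eaf2, an elongation factor partner with the smallest p of that list, stood at 8.74, 3.98 and 18.8 CPM and 6.2, 4.46 and 1.58 CPM (edgeR adjusted p = 0.463). The highest library exceeded the lowest by a median of 1.69-fold in the 19 secretory genes, 3.27-fold in 8 germinal centre genes and 18.4-fold in 21 of the 23 members that are not plasma cell genes. Genes with 3 or fewer counts in their lowest library, among them Fcer2a and Tnfrsf13c, were left out of these medians.

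Factors that attract and sustain B cells and plasma cells were measured as a list of 20 genes, of which 16 were tested. None was called by edgeR, 3 were lower and 0 higher at an unadjusted p under 0.05, and DESeq2 called 2 lower (Cxcl13 and Il6). Cxcl13, the chemokine that draws B cells into follicles, measured 267, 54.3 and 482 CPM in DSS libraries 1 to 3 and 94.8, 31.7 and 35.2 CPM in DSS+BV libraries 1 to 3, for a log2 fold change of -2.31 (SE 0.81, edgeR adjusted p = 0.358, DESeq2 adjusted p = 0.0457). The ratio of Cxcl13 to Cd79a was 6.82, 12.1 and 7.21 in the DSS libraries and 1.79, 16.6 and 13.3 in the DSS+BV libraries, so DSS+BV 1 had B cell gene levels like those of DSS 1 with far less Cxcl13. Il6, a cytokine that promotes plasma cell survival, had the smallest p of the list, with 2.45, 10.01 and 4.89 CPM against 0.989, 1.08 and 0.569 CPM, a log2 fold change of -2.71 (SE 0.59) and an adjusted p of 0.222 by edgeR and 0.00201 by DESeq2. Its order of libraries was not that of the B cell genes, since DSS 2 was highest. The BAFF gene Tnfsf13b was at 13.6, 8.27 and 28.3 CPM and 16.8, 11.3 and 8.91 CPM, and the APRIL gene Tnfsf13 at 20.7, 39.98 and 20.8 CPM and 36.7, 28.4 and 27.7 CPM. Pigr, the epithelial carrier of IgA dimers, was at 2252, 5375 and 3052 CPM in the DSS group and 4867, 3477 and 3545 CPM in the DSS+BV group. None of these 3 separated the groups, and their log2 fold changes were -0.44, 0.19 and 0.15.

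Markers of other cell types moved with the B cell genes to different degrees. The summed level of the 23 B cell members was 372, 94.6 and 635 CPM in the DSS libraries and 545, 65.6 and 63 CPM in the DSS+BV libraries. That of the 6 plasma cell members was 771, 834 and 1710 CPM and 1199, 531 and 574 CPM. Jchain and Sdc1 made up most of the latter sum. In DSS+BV 3, Sdc1, which is abundant on epithelium as well, gave 320 of the 574 CPM. The 6 follicular dendritic cell markers summed to 646, 183 and 1154 CPM and 579, 134 and 146 CPM, and all 5 that were tested had DSS 1, DSS 3 and DSS+BV 1 as their highest libraries. The 12 T cell markers summed to 63.3, 50.8 and 109 CPM and 110, 48 and 50.01 CPM, a 2.30-fold range against 10.1-fold for the B cell members, and 7 of 12 shared the order. The 10 macrophage and monocyte markers summed to 1377, 838 and 1978 CPM and 1381, 602 and 551 CPM, and 9 of 10 shared it. The sum of the 12 epithelial markers ran from 16015 to 24568 CPM in the DSS libraries and from 27508 to 44518 CPM in the DSS+BV libraries. Muc2 and Car1 weighed most in the highest sum, that of DSS+BV 3, at 20700 and 8702 CPM. Of the 12, 0 were called by edgeR and 1 (Car1) was called higher by DESeq2. At an unadjusted p under 0.05 from edgeR 5 were higher, and 1 of 12 shared the order. No marker of these lists was at 0 in all libraries. The part of these cell types in the spread of the B cell genes was not tested.

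**Figure D3:**
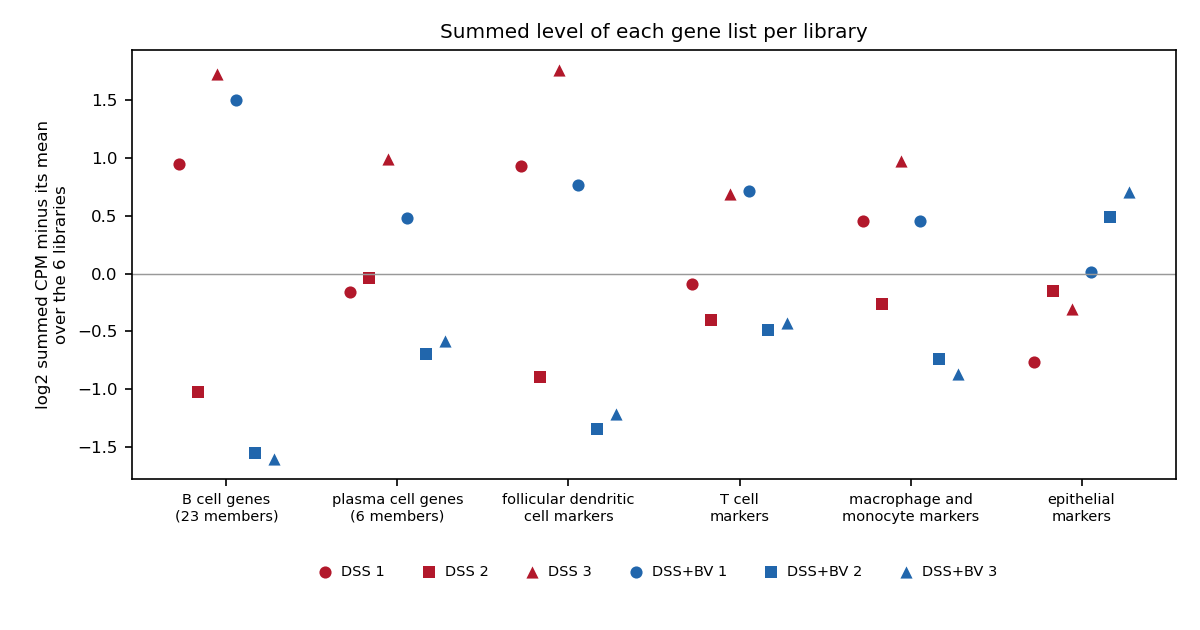
Summed CPM of each gene list per library, on the log2 scale and centred on its mean over the 6 libraries, with DSS libraries in red and DSS+BV libraries in blue. The 23 B cell members and the follicular dendritic cell markers spread the most, with DSS 2, DSS+BV 2 and DSS+BV 3 below the mean, and the epithelial markers lie in another order. The plasma cell sum consists mostly of Jchain and Sdc1.

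The group comparison of the members rested on single libraries. Without DSS+BV 1, the median log2 fold change of the members was -2.74 in place of -0.77, and 25 of 29 members were lower at an unadjusted p under 0.05, against 11% of all genes in that comparison. None of them was called after adjustment, the smallest adjusted p from edgeR being 0.210 (Irf4). Without DSS 3, the median was -0.16, and 21 of 29 members were below 0, against 53.3% of all genes. With 1 library left out, 8 members changed sign (Blk, Cr2, Fcer2a, Cd180, Ms4a1, Pax5, Spib and Tnfrsf17). No member was called under any alternative. The libraries within a group differed far beyond counting noise over all genes, by a chi-square per degree of freedom of 44.7 to 122.7, and p-values here measure the spread between these libraries, which the labels do not tie to separate animals.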

How the data were processed

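Bulk RNA-seq of colon tissue was analysed from 3 DSS and 3 DSS+BV libraries, grouped by their sample labels. The authors quantified expression with RSEM 1.2.8, and the submitters' processing notes also name HISAT2 2.1.0, Bowtie2 2.2.5 and GRCm38.p6. The deposited values were RSEM's expected counts, 1 per gene and library, and libraries had not been scaled to each other. Whether counting used strand was not given in the sources used here. Of 18477 rows, 534 were 0 throughout and 1573 held values that are not whole, none of them a member.

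For the count model, expected counts were rounded. The filterByExpr step (minimum count 10, minimum total 15) left 14579 genes. Scaling used TMM, and the group difference was tested in edgeR 4.0.16 by quasi-likelihood (limma 3.58.1 and R 4.3.3), adjusting p-values over these genes by Benjamini-Hochberg. A call required an adjusted p under 0.05 with a log2 fold change beyond 1 in either direction. The biological coefficient of variation was 32.1% and the prior degrees of freedom 2.68. Levels are counts per 1000000 (CPM) after TMM scaling and are not corrected for gene length. The 95% intervals come from the fit's standard error with 6.68 degrees of freedom. Counting intervals were not used, since replicate spread exceeded counting error. The fit was first tested on simulated counts.

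The members and the gene lists were chosen with earlier results of these data known. The order of libraries, the ratios to Cd79a and the leave-one-out counts at an unadjusted p were described after values were seen. Named genes are every member, every called gene of the wider lists, the gene with the smallest p of each list and further genes of the pathway fixed by name, some of which are not reported here. The results were recomputed with DESeq2 1.42.0, with upper-quartile or RLE factors, a minimum count of 30, no filter, a robust fit, no fold threshold, the replicate number as a block and each library left out in turn. DESeq2 gave no adjusted p for Pax5, which stayed missing. Gene and promoter positions and sequences were taken from RefSeq for GRCm38.p6, in which all 29 members had a position and 25 a promoter window. Printed stretches end before the first other annotated transcript start, except that of Cd22, for which 30 bases around the match are given. Plots used Python 3.11.15 and matplotlib 3.10.9.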

Additional observations from a re-analysis of the deposited data

How the results depend on the processing

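No member was called in either direction under any alternative. Over all tested genes, the number called lower was 13 in the main comparison, 280 with DESeq2, 0 with the replicate block and 0 to 3 with 1 library left out, and the number called higher was 0, 45 with DESeq2 and 0 to 4 with 1 library left out. In the wider lists 5 genes were called lower, against 12 with DESeq2, 0 with the block and 0 to 3 with 1 library left out, and 0 were called higher, against 1 with DESeq2 and 0 to 1 with 1 library left out. The cause of these differences was not tested. The median log2 fold change of the members was -0.77, between -0.83 and -0.75 under DESeq2, the other scalings, filters and the robust fit, -1.20 with the replicate block, and with 1 library left out as low as -2.74 (DSS+BV 1 omitted) and as high as -0.16 (DSS 3 omitted). The median of the wider B-lineage lists was -0.46, and -0.93 to -0.06 with 1 library left out. The number of members below 0 was 28, and 21 to 28 with 1 library left out.

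With 1 library left out, 8 members changed sign, none past the threshold. Their log2 fold changes ran from -3.76 to 0.037 for Blk, -4.32 to 0.33 for Cr2, -5.04 to 0.12 for Fcer2a, -1.85 to 0.28 for Cd180, -4.0 to 0.53 for Ms4a1, -4.06 to 0.21 for Pax5, -1.48 to 0.35 for Spib and -1.86 to 0.34 for Tnfrsf17. The lowest of each was without DSS+BV 1. The sign changed without DSS 3 for 7 of them, without DSS+BV 2 or without DSS+BV 3 for Cr2, Cd180, Pax5 and Spib, and without DSS 1 for Pax5. With a minimum count of 30, Tnfrsf17 was removed and 28 members were tested. Libraries sharing a replicate number correlated in their deviations from the group means by 0.27, 0.25 and -0.30, so the number was not taken to pair them, and not every library correlated best with its own number.

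Members with under 10 counts in their lowest library (as few as 1 for Fcer2a and 3 for Tnfrsf13c) have imprecise low values. Cd79a, with at least 30 counts in each library, still had an SE of 1.39.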

Other observations

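Among the remaining marker lists, the M cell markers had DSS 1, DSS 3 and DSS+BV 1 as their highest libraries in 4 of 6 tested genes, and their sum was 549, 383 and 591 CPM in the DSS libraries and 399, 290.3 and 318 CPM in the DSS+BV libraries. The neutrophil markers did not follow that order. Of 7 neutrophil markers, 5 were called lower in the DSS+BV group by edgeR and none higher. S100a8, an alarmin of neutrophils, measured 46.3, 30.4 and 39.1 CPM in DSS libraries 1 to 3 and 1.85, 1.47 and 2.09 CPM in DSS+BV libraries 1 to 3 (log2 fold change -4.42, SE 0.26, adjusted p = 0.0127 by edgeR's quasi-likelihood test). S100a9, Mmp8, Cxcr2 and Retnlg were the other called genes, with log2 fold changes of -4.19, -4.32, -3.61 and -3.24. Csf3r was lower (log2 fold change -1.85) but was called by DESeq2 alone. Cd177 went the other way, with a log2 fold change of 0.23. It was at 98.9, 308 and 74.1 CPM in the DSS libraries and 282, 99.4 and 183 CPM in the DSS+BV libraries. In none of the 7 were DSS 1, DSS 3 and DSS+BV 1 the 3 highest libraries. DSS+BV 1, which had B cell gene levels like those of DSS 1 and DSS 3, had S100a8 levels like those of its own group.

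Of 10 fibroblast and pericyte markers, 7 were lower at an unadjusted p under 0.05 and 0 were called by edgeR, with 3 called lower by DESeq2. Col3a1, a fibrillar collagen, had the smallest p, at 2161, 1924 and 1500.4 CPM against 679, 462 and 484 CPM (log2 fold change -1.78, edgeR adjusted p = 0.0833). Among the markers of other cell types, the gene with the smallest p was Ccl9 for M cells (-0.75), Tcf4 for plasmacytoid dendritic cells (-0.47), Mrc1 for macrophages (-1.33), Cd8a for T cells (0.57), Car1 for epithelium (2.84), Actg2 for smooth muscle (0.50) and Fabp4 for adipocytes (-0.93), as log2 fold changes, and none of these was called by edgeR. DESeq2 called Car1 higher (adjusted p = 0.00272) and Mrc1 lower (adjusted p = 0.0317) and the others in neither direction.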
